A study of Mus musculus with 19 samples.

Results

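Primordial germ cells are the founders of sperm and eggs, and 8 mouse genes that specify or mark them were followed through the passage from naive to epiblast-like pluripotency. The genes are Prdm1, Prdm14, Tfap2c, Nanos3, Dnd1, Kit, Ifitm1 and Ifitm3. They were chosen by name from 54119 genes whose transcript values were summed, and all 8 passed the filter on low values that left 14972 genes for testing. In the mouse embryo BMP signals from neighbouring tissue act on a few epiblast cells, which switch on PRDM1, PRDM14 and AP2gamma (the product of Tfap2c). These 3 proteins repress the somatic programme and bring back genes of pluripotency. Naive embryonic stem cells in culture already express several of the same genes, and epiblast-like cells are the state from which germ cell-like cells are made in vitro.

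RNA was sequenced from mouse embryonic stem cells (mESC) held in 2i medium, which contains N2B27, a GSK3 inhibitor and a MEK1/2 inhibitor, together with LIF. Epiblast-like cells (EpiLC) were derived from them by feeding FGF5 and Activin A for 5 days, with LIF withdrawn. The 6 groups were XX mESC (n = 3), XY mESC (n = 3), Tet3-/- mESC (n = 4), XX EpiLC (n = 3), XY EpiLC (n = 3) and Tet3-/- EpiLC (n = 3). The XX cells are wild-type LF2 cells, the Tet3-/- cells are XX LF2 cells that lack the 5-methylcytosine oxidase TET3, and the XY cells are wild-type E14 cells. Sex and cell line therefore cannot be told apart. The mutants carry the numbers #1 to #4 in mESC and #1, #3 and #4 in EpiLC. Nothing in the labels states that libraries of a group came from separate cultures, so the p-values measure the spread between these libraries, which may be technical.

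Values are TPM, the deposited abundance unit that is corrected for transcript length and keeps no sequencing depth, so no counting interval could be given. The share of TPM in protein-coding genes ran from 21.4% to 46.7% per library and was highest in the 3 XY EpiLC libraries (44.6% to 46.7%). Over the tested genes, log2 fold changes from mESC to EpiLC had a median of 0.14 for XX, 0.54 for XY and -0.13 for Tet3-/-, and the median for XX against XY EpiLC was -0.59. Results are on TPM as deposited unless TPM scaled by median-of-ratios size factors (scaled values) is named, under which these medians lay within 0.02 of 0. The summed TPM of 7 naive pluripotency markers was 326 to 799 in mESC and 27.1 to 92.4 in EpiLC. Fgf5, a marker of the epiblast state, averaged 2.46 ± 0.292 TPM in XX EpiLC and 56.3 ± 4.83 TPM in XY EpiLC (SD, n = 3 each), and no mESC group had a mean above 0.123 TPM. Tet3 itself had 0.532 to 0.916 TPM in Tet3-/- mESC and 0.536 to 1.06 TPM in XX mESC, which overlap, so its level does not check the label. In EpiLC Tet3 had 0.693 to 1.42 TPM in the mutants and 1.21 to 1.90 TPM in XX.

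The Tet3-/- EpiLC library of mutant #3 stood apart. Its 6 epiblast-like markers summed to 162 TPM against 49.9 and 48.8 TPM in mutants #1 and #4, its 7 naive markers to 67.0 TPM against 27.1 and 29.4 TPM, its 6 primitive endoderm markers to 13.5 TPM against 0.943 and 0.922 TPM, and its 6 trophoblast markers to 24.8 TPM against 6.20 and 5.58 TPM. Of the trophoblast sum, Eomes, which is also counted below among the inducing signals, held 17.4 TPM against 1.87 and 2.26 TPM. The size factor of this library was 1.33 against 0.754 and 0.654. All 8 germ cell genes had their highest Tet3-/- EpiLC value in it. Several results that use this group are given with and without it. The tests below take 1 estimate of spread per gene from all 6 groups, so this library also enters the SE of contrasts between XX and XY groups. For those contrasts, the fits of only the groups compared, in the last section, leave it out. The part of the other markers in those values was not tested. Blood and endothelium markers summed to at most 0.815 TPM and 2-cell-like markers to at most 2.47 TPM in any library. Fibroblast markers summed to 9.71 to 9.75 TPM in XY EpiLC and to at most 4.78 TPM in the other groups. Of these 6 genes 5 were under 1 TPM in every XY EpiLC library, and Thy1 alone passed the filter for testing. In bulk RNA, fewer cells that express a gene and less RNA per cell cannot be told apart.

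Ifitm1, Ifitm2 and Ifitm3 encode small interferon-induced membrane proteins and lie side by side on chromosome 7. Ifitm1 and Ifitm3 (the latter also called fragilis) are early surface marks of the cells that become germ cells. The start-site sequences of the 3 neighbours are shown because, on TPM in XX cells, Ifitm1 was called lower in EpiLC and the other neighbours were not called. Ifitm2 was called lower there on scaled values, as given below. The 3 genes were not tested against each other. RefSeq start sites on GRCm38.p6 were available for 5 of the 8 genes. Each sequence below runs 5′ to 3′ from 250 bases before the start to 30 bases after it, with matches to 6 short motifs in capitals.

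Ifitm2, chr7:140955932-140956211, minus strand: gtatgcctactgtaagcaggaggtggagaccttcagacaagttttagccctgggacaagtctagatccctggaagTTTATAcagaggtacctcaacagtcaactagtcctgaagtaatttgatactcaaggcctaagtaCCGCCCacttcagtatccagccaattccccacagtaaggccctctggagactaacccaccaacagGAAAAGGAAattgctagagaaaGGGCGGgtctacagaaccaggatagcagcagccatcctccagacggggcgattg

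Ifitm1, chr7:140967826-140968105, plus strand: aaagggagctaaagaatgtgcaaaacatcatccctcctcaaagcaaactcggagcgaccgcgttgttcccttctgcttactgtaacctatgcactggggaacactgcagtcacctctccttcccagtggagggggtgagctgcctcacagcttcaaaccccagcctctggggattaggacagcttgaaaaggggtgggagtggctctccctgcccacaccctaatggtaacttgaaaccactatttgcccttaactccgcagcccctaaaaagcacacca

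Ifitm3, chr7:141010715-141010994, minus strand: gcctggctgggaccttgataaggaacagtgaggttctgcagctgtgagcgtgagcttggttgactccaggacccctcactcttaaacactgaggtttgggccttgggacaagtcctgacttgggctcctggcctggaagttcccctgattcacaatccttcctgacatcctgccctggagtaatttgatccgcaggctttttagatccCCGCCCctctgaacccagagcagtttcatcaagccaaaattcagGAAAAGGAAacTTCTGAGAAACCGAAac

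The motifs were searched on both strands in windows that run to 50 bases past the start. They were the GC box GGGCGG, the TATA box TATAAA, the E-box CACGTG, a STAT element TTCNNNGAA, a TFAP2 element GCCNNNGGC and the core of the interferon-stimulated element, GAAANNGAA. They occurred in 35.7%, 13.6%, 7.15%, 8.30%, 16.6% and 8.56% of 32851 such windows. The Ifitm1 window held none of the 6. The Ifitm3 window held a GC box, a STAT element and 2 interferon-element cores, the second of which overlaps the STAT element. In the Ifitm2 window there were 2 GC boxes, a TATA box on the minus strand relative to the gene and 1 interferon-element core. Kit and Nanos3 each held a GC box and a TFAP2 element, which overlap in Nanos3, and Prdm1 held no match. A match describes the letters only and shows no binding.

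Kit encodes the receptor for stem cell factor, which germ cells need for survival and migration. Its 2 full-length coding transcripts in GENCODE M21 differ by 12 bases at the end of exon 9 (chr5:75639147-75639158, GRCm38, plus strand), the known splice choice that adds or leaves out a short stretch of the receptor outside the membrane. They also differ at the 5′ end, with starts at 75574955 (with the bases) and 75574916 (without), so the estimated split need not rest on this junction alone. The junction is shown because both forms were estimated in every mESC library, with the alternative bases in capitals.

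Kit with the added bases: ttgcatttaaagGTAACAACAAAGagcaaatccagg

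Kit without them: ttgcatttaaagagcaaatccagg

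**Figure D1:**
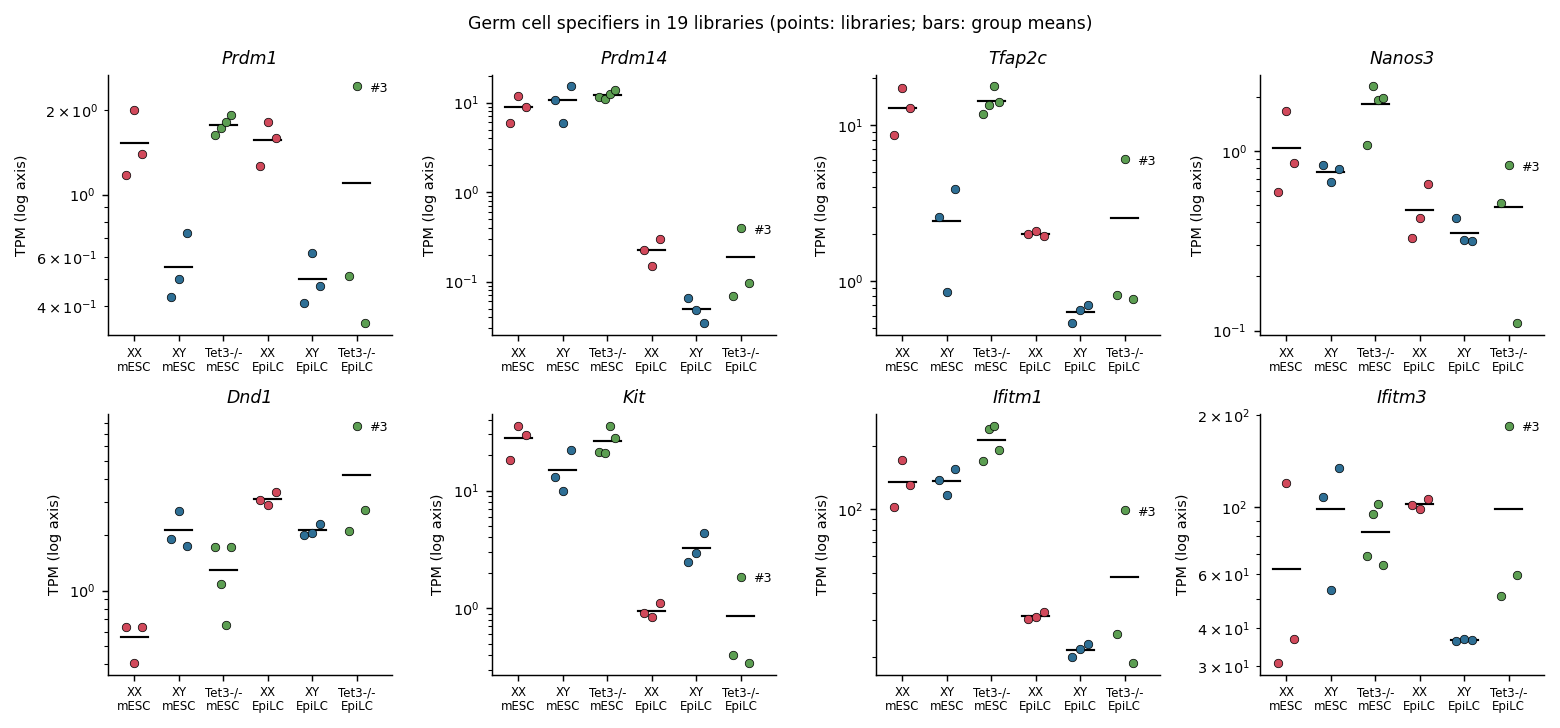
TPM of the 8 genes in each of the 19 libraries, on a log axis with its own range in each panel. Points are libraries, bars are group means, and #3 marks the Tet3-/- EpiLC library of mutant #3, which is the highest of its group in every panel.

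The first question was how these genes move when mESC become EpiLC, in each genotype by itself. Prdm14, Kit and Ifitm1 fell in all 3 genotypes. Prdm14 and Kit had the lowest log2 fold changes in XX and Tet3-/-, and Prdm14 and Ifitm1 in XY. Dnd1 rose in XX and in Tet3-/- cells, and Prdm1 was called in no genotype on TPM. By limma with Benjamini-Hochberg adjustment over all 14972 genes and a threshold of 0.05, 1 of the 8 rose and 4 fell in XX, against 19.2% of all tested genes that rose and 12.2% that fell. In XY 4 fell and 0 rose, against 9.36% of tested genes that fell and 41.1% that rose. In Tet3-/- 1 rose and 5 fell, against 13.6% and 21.5%. On scaled values 6, 6 and 7 of the 8 were called, against 50.4%, 51.4% and 52.4% of all tested genes. The falls of Prdm14, Kit and Ifitm1 in all 3 genotypes and the rises of Dnd1 in XX and Tet3-/- were called on both scales. The 8 genes had a median log2 fold change of -1.24 for XX, -1.13 for XY and -1.67 for Tet3-/-.

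Prdm14 encodes a PR-domain protein that holds DNA methylation and FGF signalling down in naive and germ cells (chromosome 1, 13113457 to 13127163). It had 5.91, 11.7 and 8.98 TPM in the XX mESC libraries, 10.6, 5.89 and 15.2 TPM in XY mESC, and 11.4, 10.9, 12.6 and 13.7 TPM in Tet3-/- mESC. In EpiLC it was at 0.227, 0.150 and 0.302 TPM in XX, 0.0655, 0.0476 and 0.0341 TPM in XY, and 0.0682, 0.395 and 0.0962 TPM in Tet3-/- #1, #3 and #4. Every EpiLC library lay below every mESC library. The log2 fold change was -2.97 in XX (SE 0.26, limma adjusted p 5.16e-08), -3.38 in XY (SE 0.26, limma adjusted p 5.34e-09) and -3.47 in Tet3-/- (SE 0.24, limma adjusted p 2.06e-09). Because 1 TPM was added before taking logs, a gene that ends near 0 changed by more than these values, and the ratio of mean TPM, mESC over EpiLC, was 39.2 for XX, 215 for XY and 65.1 for Tet3-/- (148 without mutant #3).

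Tfap2c encodes AP2gamma, which acts beside PRDM1 in germ cell founders (chromosome 2, 172549593 to 172558622). It had 8.65, 17.3 and 12.8 TPM in XX mESC and 11.8, 13.3, 17.6 and 14.1 TPM in Tet3-/- mESC, but 2.56, 0.858 and 3.88 TPM in XY mESC. In XX EpiLC the libraries were close together at 2.01, 2.09 and 1.94 TPM. XY EpiLC had 0.537, 0.658 and 0.705 TPM. Among the mutants #1 and #4 had 0.812 and 0.764 TPM and #3 had 6.03 TPM. Tfap2c fell in XX (-2.16, SE 0.42, limma adjusted p 0.000490) and in Tet3-/- (-2.42, SE 0.39, limma adjusted p 6.53e-05). Without mutant #3 the Tet3-/- value was -3.08, and the ratio of mean TPM, mESC over EpiLC, was 18.0 in place of 5.61. In XY, where the starting level was lower, the log2 fold change was -0.96 (limma adjusted p 0.0609), and on scaled values it was called (-1.16, limma adjusted p 0.00267). On TPM it was also called without XY mESC 2 (-1.35).

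Prdm1 encodes BLIMP1, the repressor that starts the germ cell programme (chromosome 10, 44437177 to 44528501). Its level was low throughout, with 1.17, 2.01 and 1.39 TPM in XX mESC and 1.27, 1.82 and 1.60 TPM in XX EpiLC. XY libraries had 0.429, 0.498 and 0.728 TPM as mESC and 0.411, 0.617 and 0.472 TPM as EpiLC. The states overlapped in both, with log2 fold changes of 0.03 in XX (SE 0.25, limma adjusted p 0.952) and -0.05 in XY (SE 0.25, limma adjusted p 0.891). On scaled values the XX value was -0.10, which is also not called. The 95% interval of the XX difference ran from -0.49 to 0.55. In Tet3-/- Prdm1 had 1.64, 1.73, 1.81 and 1.93 TPM in mESC and 0.510, 2.44 and 0.347 TPM in EpiLC #1, #3 and #4. The log2 fold change there was -0.54 (limma adjusted p 0.0831), called on scaled values (-0.54, limma adjusted p 0.00760), and -0.96 (limma adjusted p 6.09e-05) without mutant #3. The scaled call was lost without Tet3-/- EpiLC #4 (-0.37).

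Nanos3 and Dnd1 encode RNA-binding proteins that keep germ cells alive, and in Tet3-/- cells Nanos3 fell and Dnd1 rose. Nanos3 (chromosome 8, 84173731 to 84185217) had 0.594, 1.66 and 0.861 TPM in XX mESC and 0.330, 0.421 and 0.655 TPM in XX EpiLC, which overlap. It was called lower in Tet3-/- alone on TPM (-0.93, SE 0.20, limma adjusted p 0.000986), where mESC had 1.07 to 2.29 TPM and EpiLC 0.11 to 0.833 TPM. On scaled values it was called lower in XX (-0.56, limma adjusted p 0.0119), in XY (-0.54, limma adjusted p 0.0133) and in Tet3-/- (-0.93). The scaled XX call was lost without XX mESC 2 (-0.43).

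Dnd1 (chromosome 18, 36763671 to 36766214) had 0.634, 0.408 and 0.636 TPM in XX mESC and 3.09, 2.90 and 3.39 TPM in XX EpiLC, so the states did not overlap. It rose by 1.41 on the log2 scale (SE 0.29, limma adjusted p 0.000802). In Tet3-/- it went from 0.648 to 1.72 TPM in mESC to 2.10, 7.75 and 2.72 TPM in EpiLC (log2 fold change 1.05, SE 0.27, limma adjusted p 0.00437), and without mutant #3 the value was 0.60, which stayed called. In XY the mESC libraries already had 1.90, 2.69 and 1.74 TPM and the EpiLC libraries 2.00, 2.05 and 2.28 TPM. The XY log2 fold change was 0.01 (SE 0.29, limma adjusted p 0.980) and -0.44 on scaled values (limma adjusted p 0.171). Dnd1 overlaps Wdr55 on the opposite strand by 140 bases, and 2 microRNA genes lie within Nanos3 on its strand. The libraries were made with a stranded kit, but the sources used here do not state whether the quantification used strand.

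Kit (chromosome 5, 75574916 to 75656722) had 18.0, 35.3 and 29.9 TPM in XX mESC and 0.908, 0.837 and 1.11 TPM in XX EpiLC. In Tet3-/- it had 21.3, 21.005, 35.6 and 28.2 TPM in mESC and 0.402, 1.85 and 0.345 TPM in EpiLC #1, #3 and #4. XY cells started at 13.1, 9.94 and 22.04 TPM and ended at 2.45, 2.96 and 4.37 TPM. In each genotype the EpiLC libraries lay below all mESC libraries. The log2 fold change was -3.83 in XX (SE 0.33, limma adjusted p 5.09e-08), -1.86 in XY (SE 0.33, limma adjusted p 0.000136) and -3.94 in Tet3-/- (SE 0.31, limma adjusted p 1.00e-08).

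Ifitm1 (chromosome 7, 140967221 to 140969825) was the most abundant of the 8 genes in mESC of each genotype. It had 102, 171 and 130 TPM in XX mESC, 137, 117 and 155 TPM in XY mESC, and 168, 239, 248 and 192 TPM in Tet3-/- mESC. The EpiLC values were 30.3, 31.1 and 32.7 TPM in XX, 20.0, 21.8 and 23.2 TPM in XY, and 25.6, 99.0 and 18.8 TPM in Tet3-/- #1, #3 and #4. Even the high library of mutant #3 lay below every mESC library of its genotype. Ifitm1 fell in XX (-2.03, SE 0.40, limma adjusted p 0.000592), in XY (-2.59, SE 0.40, limma adjusted p 3.12e-05) and in Tet3-/- (-2.49, SE 0.37, limma adjusted p 3.14e-05). Without mutant #3 the Tet3-/- value was -3.19.

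Ifitm3 (chromosome 7, 141009586 to 141010770, 39760 bases past the end of Ifitm1) did not follow it in XX and Tet3-/- cells. It had 30.8, 120 and 36.9 TPM in XX mESC and 102, 98.3 and 106 TPM in XX EpiLC. One XX mESC library was above all XX EpiLC libraries and the other two were far below, and the log2 fold change of 0.97 (SE 0.47) was not called (limma adjusted p 0.139). Without XX mESC 2, the high library, it was 1.57 and called (limma adjusted p 0.00962). In Tet3-/- it had 68.7, 94.8, 102 and 64.6 TPM in mESC and 50.9, 184 and 59.8 TPM in EpiLC, a change of 0.03 on the log2 scale (limma adjusted p 0.976), and of -0.55 without mutant #3, not called. XY cells went from 108, 53.2 and 134 TPM to 36.4, 36.8 and 36.5 TPM without overlap. Ifitm3 fell there by 1.30 on the log2 scale (SE 0.47, limma adjusted p 0.0291) and by 1.96 on scaled values (limma adjusted p 7.18e-05). The TPM call held in 1 of 6 fits with a library left out (-1.69 to -1.03, lost without XY mESC 1 or 3 or without any 1 of the 3 XY EpiLC libraries), and the scaled call in 6 of 6. Ifitm2, which lies 11233 bases before Ifitm1, averaged 219 ± 139 TPM in XX mESC and 118 ± 3.78 TPM (SD, n = 3 each) in XX EpiLC, and was called lower on TPM in Tet3-/- (-1.24, limma adjusted p 0.00456) and on scaled values in all 3 genotypes.

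**Figure D2:**
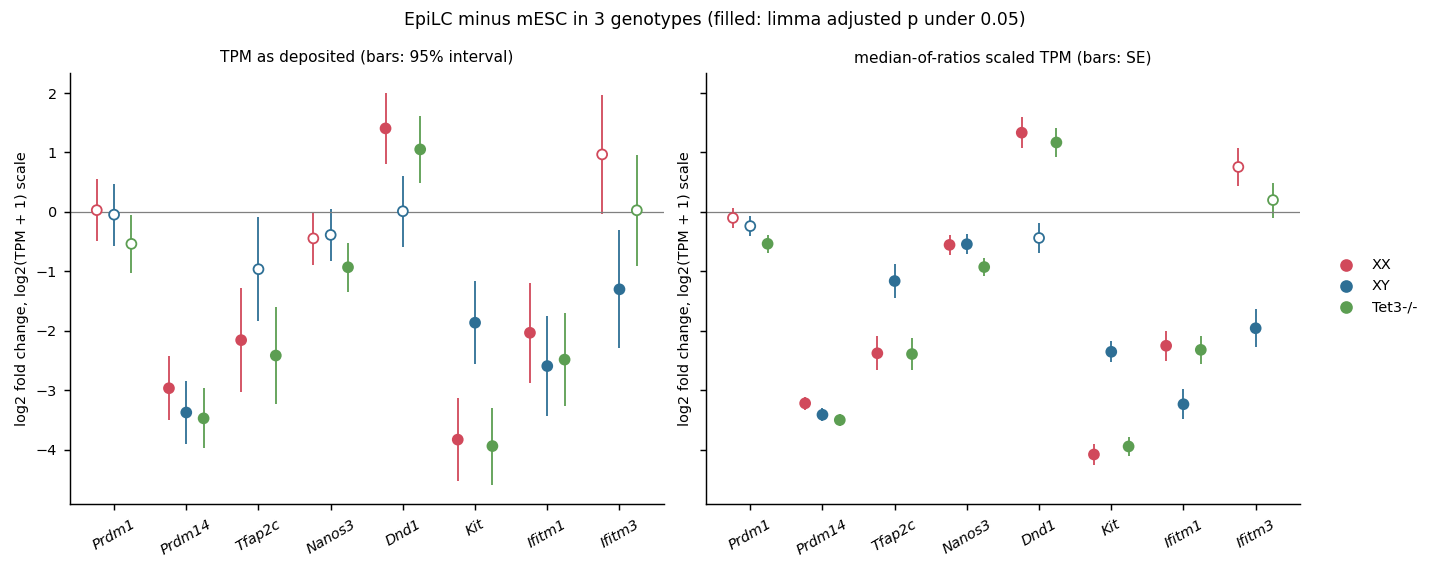
Log2 fold change of each gene from mESC to EpiLC on TPM (left, bars are 95% intervals) and on scaled TPM (right, bars are standard errors), with filled points for a limma adjusted p under 0.05. Prdm14, Kit and Ifitm1 lie well below 0 in all 3 genotypes, and Dnd1 and Ifitm3 lie lower in XY than in XX.

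The second question was whether loss of TET3 changed these genes. None of the 8 was called between Tet3-/- and XX cells by limma, either in mESC, in EpiLC or in the difference of the transitions. All tested genes were called at rates of 0.601%, 1.08% and 0.174%, so few calls were made in any direction. At an unadjusted p under 0.05 the members numbered 1 in mESC (Nanos3), 0 in EpiLC and 0 in the difference. On scaled values 0 of 8 were again called in each, against 3.18%, 5.46% and 0.661% of tested genes. In mESC the median log2 fold change of the 8 was 0.46, beside 0.19 for all tested genes, and on scaled values 0.28 beside -0.01. On TPM the highest value in mESC was Ifitm1 at 0.66 (95% interval -0.12 to 1.45, limma adjusted p 0.657), and on scaled values it was Dnd1 at 0.41 (limma adjusted p 0.479). The 4 Tet3-/- mESC libraries, at 0.648 to 1.72 TPM of Dnd1, lay above the 3 XX libraries, at 0.408 to 0.636 TPM, without passing the test, and on scaled values the groups overlapped. For Ifitm3 the difference of transitions was -0.94, with a 95% interval from -2.30 to 0.42 (limma adjusted p 0.785), so differences of that size could not be told from 0.

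Prdm1 in EpiLC depended on 1 library. The XX libraries had 1.27 to 1.82 TPM, mutants #1 and #4 had 0.510 and 0.347 TPM, and mutant #3 had 2.44 TPM. With all 3 mutants the log2 fold change against XX was -0.42 (SE 0.25, limma adjusted p 0.699). Without mutant #3 it was -0.84 (limma adjusted p 0.00905), and the difference of the Tet3-/- and XX transitions went from -0.57 (limma adjusted p 0.745) to -0.99 (limma adjusted p 0.0343). On scaled values without mutant #3 these were -0.72 (limma adjusted p 0.000409) and -0.70 (limma adjusted p 0.00995). The scaled fits without mutant #3 were added after the values had been seen. Without it 2 mutant libraries remain, and on TPM 2.12% of tested genes were called between Tet3-/- and XX EpiLC and 0.685% for the difference of the transitions.

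The third question was how XX and XY cells differ at each state. In mESC Tfap2c was higher in XX and Dnd1 lower, 1 gene in each direction, against 6.43% of all tested genes that were higher and 7.73% that were lower. Tfap2c averaged 12.9 ± 4.34 TPM in XX and 2.43 ± 1.51 TPM in XY mESC (SD, n = 3 each), and the lowest XX library, 8.65 TPM, was above the highest XY library, 3.88 TPM. Its log2 fold change was 2.08 (SE 0.42, limma adjusted p 0.00200) and 2.38 on scaled values (limma adjusted p 1.13e-05). Dnd1 averaged 0.560 ± 0.131 TPM in XX and 2.11 ± 0.506 TPM in XY (SD, n = 3 each), which is -0.99 on the log2 scale (SE 0.29, limma adjusted p 0.0251). The Dnd1 call was lost when any 1 of the XX libraries, XY 1 or XY 2 was left out (-1.07 to -0.86), and on scaled values (-0.89, limma adjusted p 0.0152) when XY 2 was. On scaled values 4 of 8 were called, against 31.3% of tested genes, with Prdm1 (0.87, limma adjusted p 0.000731) and Kit (1.14, limma adjusted p 0.000138) higher in XX as well.

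In EpiLC Prdm1 and Ifitm3 were higher in XX and Kit was lower, against 5.23% of tested genes that were higher and 42% that were lower on TPM. Prdm1 averaged 1.56 ± 0.277 TPM in XX and 0.500 ± 0.106 TPM in XY (SD, n = 3 each), with a log2 fold change of 0.77 (SE 0.25, limma adjusted p 0.0194) and 1.01 on scaled values (limma adjusted p 0.000174). Ifitm3 averaged 102 ± 3.69 TPM in XX and 36.5 ± 0.239 TPM in XY (SD, n = 3 each), and all 3 XX libraries were above all XY libraries. Its log2 fold change was 1.45 (SE 0.47, limma adjusted p 0.0203) and 2.17 on scaled values (limma adjusted p 5.97e-05). Kit averaged 0.951 ± 0.141 TPM in XX and 3.26 ± 0.994 TPM in XY (SD, n = 3 each), with a log2 fold change of -1.10 (SE 0.33, limma adjusted p 0.0132) and -0.59 on scaled values (limma adjusted p 0.0162). All 3 TPM calls were lost without XY EpiLC 3, when 0 of the 8 were called. Prdm1 was also lost without XX EpiLC 2 (values from 0.70 to 0.85), and Ifitm3 without XX EpiLC 1 or XY EpiLC 2 (1.43 to 1.48). Kit on scaled values was lost without XX EpiLC 2 or XY EpiLC 3 (-0.65 to -0.47). On scaled values 6 of 8 were called, against 33.8% of tested genes. Tfap2c (1.16, limma adjusted p 0.00457), Dnd1 (0.88, limma adjusted p 0.0149) and Ifitm1 (1.22, limma adjusted p 0.00129) were then also higher in XX, and Dnd1 was lost without XX EpiLC 1. Epiblast-like markers summed to 283 to 361 TPM in XY EpiLC and 45.6 to 56.1 TPM in XX EpiLC, and primitive endoderm markers to 6.10 to 6.72 and 1.01 to 1.08 TPM. Of the 7 naive markers 5 were called higher and 1 lower in XX EpiLC (median log2 fold change 1.13), with Esrrb at 12.6 ± 1.26 TPM in XX and 0.714 ± 0.150 TPM in XY (SD, n = 3 each). The part of these markers in the differences was not tested.

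**Figure D3:**
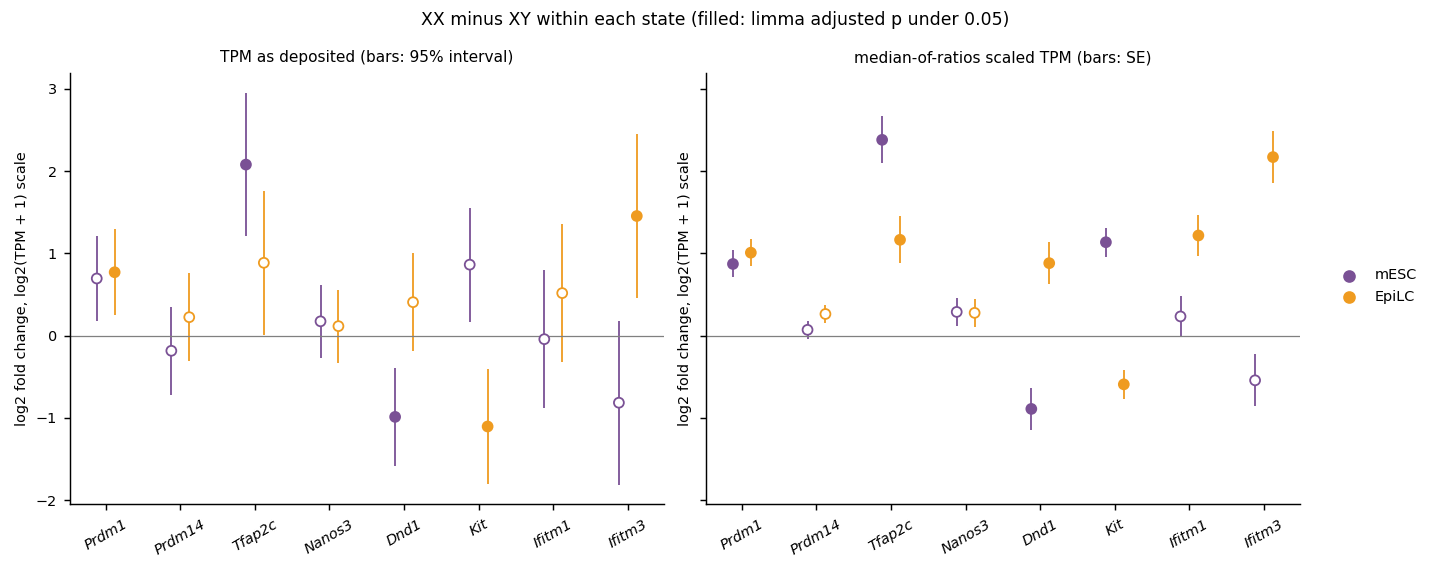
Log2 fold change of XX against XY in mESC and in EpiLC, on TPM (left, bars are 95% intervals) and on scaled TPM (right, bars are standard errors), with filled points for a limma adjusted p under 0.05. Tfap2c is higher in XX mESC on both scales, and Dnd1, Kit and Ifitm3 lie on opposite sides of 0 in mESC and EpiLC.

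The transitions themselves differed between XX and XY for 3 genes on TPM by the interaction term in limma. The change was higher in XX for Dnd1 and Ifitm3, against 3.61% of tested genes called higher, and lower for Kit, against 12.4% called lower. The difference was 1.39 for Dnd1 (SE 0.40, limma adjusted p 0.0238), 2.27 for Ifitm3 (SE 0.67, limma adjusted p 0.0269) and -1.97 for Kit (SE 0.47, limma adjusted p 0.00708). On scaled values 4 of 8 were called, against 23.7% of tested genes, and the values were 1.77, 2.71 and -1.73, with Tfap2c at -1.22 (limma adjusted p 0.0378). Kit was called in 12 of 12 fits with a library left out on both scales. On TPM Dnd1 was called in 9 of 12 (lost without XY mESC 2, XX EpiLC 3 or XY EpiLC 2) and Ifitm3 in 4 of 12 (1.91 to 2.87), while on scaled values both were called in 12 of 12. The Ifitm3 call on TPM was lost without XX mESC 1 or 3, XY mESC 1 or 3, XX EpiLC 1 or 3, or XY EpiLC 2 or 3. Tfap2c was called on scaled values in 2 of 12.

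Transcript estimates were then read within the genes that had more than 1 abundant form. The deposited values carry no error of the split between transcripts, so these shares are descriptions without a test. Ifitm1 has a 2-exon and a 3-exon transcript that start 12 bases apart. The 2-exon form made up 48.5%, 35.6% and 50.1% of Ifitm1 TPM in the XX mESC libraries, 25.2% to 30.7% in XY mESC and 34.9% to 43.4% in Tet3-/- mESC. In EpiLC its share was 18.3% to 19.3% in XX, 18.0% to 23.1% in XY and 10.5% to 17.2% in Tet3-/-. All EpiLC libraries thus had a smaller share than all mESC libraries. In XX the mean of the 2-exon form went from 58.6 to 5.84 TPM and that of the 3-exon form from 72.4 to 25.3 TPM.

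A Tfap2c transcript whose start lies 1398 bases inside the first one (chromosome 2, 172550991) was read next. Its share of Tfap2c TPM was 43.6% to 48.7% in XX, 70.0% to 80.9% in XY and 25.0% to 38.9% in Tet3-/- mESC. In EpiLC it was listed at 0 in all 3 XY libraries, in 2 of 3 XX libraries and in Tet3-/- #3, where Tfap2c was highest. It was 21.2% in XX EpiLC 1, and 28.3% and 49.2% in Tet3-/- EpiLC #1 and #4. Tfap2c as a whole had 0.537 to 0.705 TPM in XY EpiLC and 0.812 and 0.764 TPM in these mutants, so the shares there rest on low values. For Kit, the form without the 12 bases held 54.2% to 67.7% of the coding pair in the 10 mESC libraries, with overlap between the 3 genotypes. In EpiLC both forms were near or under 1 TPM in XX and Tet3-/- cells, and the share ran from 35.0% to 100% over all EpiLC libraries, too widely to set against mESC.

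**Figure D4:**
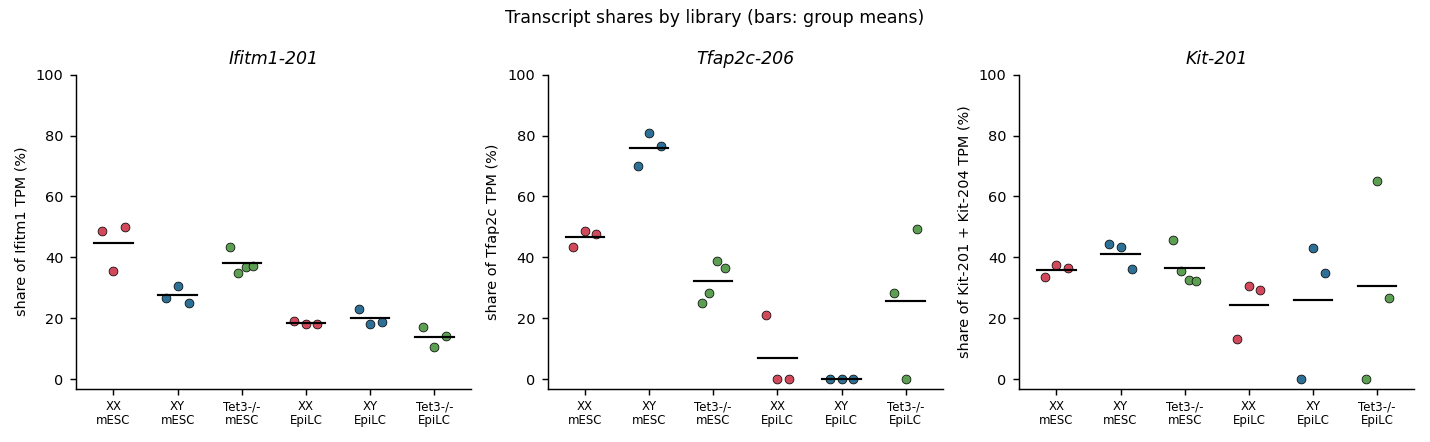
Share of a transcript in its gene's TPM (for Kit, in the sum of the forms with and without the 12 bases) in each library, in percent, with bars for group means. The 2-exon form of Ifitm1 lies at 25.2% or more in every mESC library and at 23.1% or less in every EpiLC library.

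The rest of the pathway was read from lists of genes, beside the shares of all tested genes given above: 19.2% rose and 12.2% fell in XX, 41.1% and 9.36% in XY, and 13.6% and 21.5% in Tet3-/-. Of 15 inducing signals (BMP and WNT ligands, receptors, SMADs and early targets) 13 were tested, and 6 rose in XX, 8 rose and 1 fell in XY, and 7 rose in Tet3-/-. On scaled values 9 rose in XX, 7 rose and 1 fell in XY, and 11 rose in Tet3-/-. These scaled counts stand beside larger shares of all tested genes, called on that scale in either direction: 50.4% (XX), 51.4% (XY) and 52.4% (Tet3-/-). Without mutant #3, 4 rose and 2 fell in Tet3-/- on TPM, against 11.1% and 33.2% of tested genes. The list's median log2 fold change was 0.77, 1.14 and 0.60, beside 0.14, 0.54 and -0.13 for all tested genes. Bmp4, the ligand that induces germ cell founders, was the one that fell in XY. It had 11.5 ± 2.70 TPM in XY mESC and 3.89 ± 1.68 TPM in XY EpiLC (SD, n = 3 each, -1.39, limma adjusted p 0.000900). In XX it rose from 0.640 ± 0.485 to 8.47 ± 0.401 TPM (SD, n = 3 each, 2.57, limma adjusted p 2.14e-06). Bmpr1a, a BMP receptor, Wnt3, a ligand upstream of BMP competence, and Id1, a BMP target, rose in all 3 genotypes. Without mutant #3, Bmpr1a (0.61, limma adjusted p 0.0686) and Id1 (0.41, limma adjusted p 0.119) were not called in Tet3-/-. T, the mesoderm factor that also acts on Prdm1 and Prdm14, passed the test in Tet3-/- (2.54, limma adjusted p 0.0256) and not in XX or XY, with 0.843 to 94.3 TPM in the 3 Tet3-/- EpiLC libraries. The highest value is that of mutant #3, and without it the log2 fold change of T was 0.66 (limma adjusted p 0.0220). In XX, T had 0.0338 to 0.0602 TPM in mESC and 0.497 to 0.974 TPM in EpiLC. In XY it had 4.75 to 7.81 and 17.3 to 27.3 TPM, so EpiLC lay higher without overlap in both. The log2 fold changes were 0.77 in XX and 1.65 in XY (SE 0.91 each). That SE comes from the spread over all 6 groups, mutant #3 included.

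Of 9 cofactors and regulators, all tested, 2 rose and 2 fell in XX, 4 rose and 1 fell in XY, and 1 rose and 2 fell in Tet3-/-, with medians of 0.14, 0.72 and -0.28 beside 0.14, 0.54 and -0.13 for all tested genes. Without mutant #3, 1 rose and 4 fell in Tet3-/-. Lin28a, which blocks let-7, rose in all 3 genotypes (4.81 in XX, 4.61 in XY and 4.71 in Tet3-/-), and Foxd3, a pluripotency factor, fell in all 3. Otx2, which restrains germ cell entry, had 18.9 ± 3.05 TPM in XX mESC and 11.0 ± 0.578 TPM in XX EpiLC, but 1.74 ± 0.885 and 62.6 ± 9.10 TPM in XY (SD, n = 3 each). It fell in XX (-0.71, limma adjusted p 0.0398) and rose in XY (4.58, limma adjusted p 1.07e-10). Kitl, the ligand of KIT, rose in XX (0.84, limma adjusted p 0.00484), and its mean did not exceed 1.55 TPM in any group.

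Of 10 later germ cell genes 9 were tested, and 1 rose and 6 fell in XX, 2 rose and 3 fell in XY, and 1 rose and 6 fell in Tet3-/-. The 9 genes had medians of -1.37, -0.46 and -2.13. Dppa3, also called stella, and Dazl fell in all 3 genotypes. Dazl, a germ cell RNA-binding protein, went from 60.6 ± 39.3 to 0.375 ± 0.0865 TPM in XX (SD, n = 3 each, -5.19, limma adjusted p 4.07e-08). Ddx4, the germ cell helicase also called Vasa, rose in XX (0.92) and XY (1.63), to 2.55 ± 0.251 and 3.14 ± 0.330 TPM (SD, n = 3 each). In Tet3-/- the gene that rose was Mael (0.84, limma adjusted p 0.00264). Of 27 relatives of the 8 genes 14 were tested, among them Tfap2a and Prdm16, which fell in all 3 genotypes. Of 6 somatic mesoderm genes that PRDM1 is known to hold down 2 were tested, and Fgf8 rose in XY (4.33) and Tet3-/- (1.89). It had 0.256 to 27.4 TPM in the 3 Tet3-/- EpiLC libraries, with mutant #3 the highest, and without that library its change was 0.42 (limma adjusted p 0.00640).

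**Figure D5:**
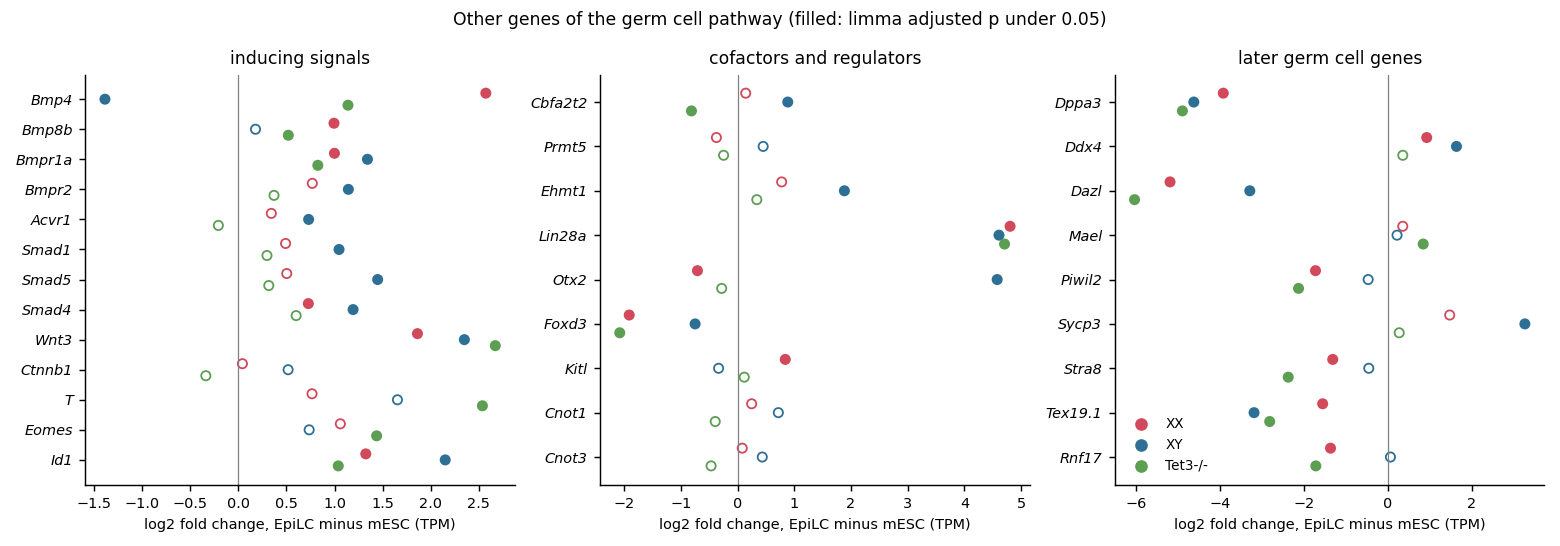
Log2 fold change from mESC to EpiLC on TPM for the tested genes of 3 lists, with filled points for a limma adjusted p under 0.05 and 1 point per genotype. Bmp4 and Otx2 lie on opposite sides of 0 in XX and XY, and Dppa3 and Dazl lie below 0 in all 3 genotypes.

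The genes whose pattern was most like each of the 8 were taken by Pearson's r of log2(TPM + 1) over the 19 libraries, among 10336 genes. The libraries share groups and scaling, so r mainly follows the 6 group levels and is given as a description. For Prdm14 the nearest were Gm13128 and Gm12690 (r 0.993 each), and for Kit they were Mppe1 (0.994) and Alpl (0.986). Ifitm1 was nearest to Upp1 (0.985) and Slc4a5 (0.97), and Tfap2c to Ddah1 (0.967) and Rhox5 (0.964). The nearest to Nanos3 were 4930452B06Rik (0.938) and Pole4 (0.914), and those to Prdm1 were Tgoln1 (0.914) and Icam1 (0.909). Ifitm3 was nearest to Capns1 (0.918) and Pcolce (0.891), and Dnd1 to Gadd45a (0.910) and Pard6g (0.910).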

How the data were processed

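The deposited table gives TPM for 140948 transcripts in 19 libraries of rRNA-depleted stranded total RNA, and each column sums to 1000000. The submitters' processing notes name FastQC 0.11.7, Trimmomatic 0.35, Salmon 1.1.0 and GRCm38, and the annotation is not given in the sources used here. Gene values are sums over the transcripts that GENCODE M21 (GRCm38) assigns to a gene. 139357 matched with their version, 495 without it, and 1096 (at most 0.215% of TPM) did not match.

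The 14972 genes that reached 1 TPM in 3 or more libraries were tested with limma 3.58.1 in R 4.3.3 on log2(TPM + 1), with 6 group means, eBayes with a trend, and Benjamini-Hochberg adjustment within each of 9 contrasts. The fit code was run on simulated data with normal noise and no scaling differences between libraries. Changes were placed there only in genes of higher mean, so that run does not cover genes near 1 TPM. The named genes are the 8 genes, listed genes and the 2 nearest genes by correlation. The genes and lists were chosen with earlier results of these data known. Alternatives were other pseudocounts, filters, scalings, groups in the fit, blocks, call rules and left-out libraries.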

Additional observations from a re-analysis of the deposited data

Results flagged for a closer look

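The change from mESC to EpiLC differed between XX and XY cells by the interaction term of limma for Dnd1 (1.39 on the log2 scale, higher in XX), Kit (-1.97, lower in XX) and Ifitm3 (2.27, higher in XX) on TPM, and for Tfap2c on scaled values (-1.22). Each genotype has 3 libraries per state, and cell line and sex cannot be told apart. Of the 8 genes none had a Tet3-/- mESC library past Dixon's limit, and groups of 3 were not tested.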

How the results depend on the processing

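The counts of called genes in the 3 transitions moved by at most 1.5 times, except 7 in XY with quantile normalization, beside 4 as reported (52.1% of tested genes called, beside 50.5%). For XX against XY in mESC the count of 2 was 1 with no filter, with a filter at 5 TPM or when a call also needed a change of 1 or more on the log2 scale, and 4 with median-of-ratios scaling, quantile normalization or rescaling over protein-coding genes. Of all tested genes 3.62%, 11.6% and 8.02% were called under the former settings and 31.3%, 33.8% and 23.2% under the latter, beside 14.2%. In EpiLC the count of 3 was 5 with a pseudocount of 0.1, 1 with no filter, 6 under each of the 3 scalings and 7 with only the groups compared, when 44.7%, 14.3%, 27.6% to 38.2% and 72.8% of tested genes were called, beside 47.2%. For the difference of the XX and XY transitions it was 1 with no filter, beside 3 (5.17% and 16% of tested genes). With each library left out the counts ran from 1 to 3 (XX against XY in mESC), 0 to 3 (EpiLC), 1 to 3 (difference of transitions), and 0 to 1 for Tet3-/- against XX in EpiLC and for its difference of transitions. The latter pair gave 1 each, Prdm1, with scaling and without mutant #3, a setting chosen after seeing the data. The replicate block moved 1 count by over 1.5 times, to 4 for XX against XY in mESC (15.8% of tested genes). Same-numbered mESC and EpiLC libraries of a genotype had correlations of deviations from -0.05 to 0.30, with 0.27, 0.30 and -0.02 for mutants #1, #3 and #4. Same-numbered XX and Tet3-/- mESC libraries had 0.52, 0.44 and -0.44. Libraries of unlike number were not compared, so these values cannot decide pairing. The labels state no pairs, and the numbers were not taken as pairs. Signs reversed only for values near 0 that were not called as reported: Prdm1 in XX (-0.10 scaled, -0.15 quantile, -0.073 to 0.16 with libraries left out), Prdm1 in XY (-0.10 to 0.033), Dnd1 in XY (-0.44 scaled, -0.55 quantile, where it was called lower, -0.22 over protein-coding genes, -0.074 to 0.14), and Ifitm3 in Tet3-/- (-0.55 to 0.37, and -0.073 scaled without mutant #3). The cause of these shifts was not tested. TPM keeps no depth, so the precision of genes near 1 TPM, such as Prdm1, Nanos3 and Dnd1, rests on the spread between libraries.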
